A study of Mus musculus with 4 samples.

Results

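In mouse liver 10 genes of zinc handling were followed. These were Slc39a4, Slc39a5, Slc39a1, Slc39a14 and Slc39a8, which encode zinc importers, Slc30a1 and Slc30a10, which encode exporters, the metallothionein genes Mt1 and Mt2, and Mtf1, which encodes the metal-sensing transcription factor. They were picked by symbol from the 46603 genes of the count table, because Slc39a4 showed the clearest difference between the groups. All 10 were found, and all 10 passed the filter on low counts. The comparison that led to the choice is the one described here, so the values of these 10 genes are given as a description, with standard errors and no p-value. How many passed a threshold is given once, beside the share of all genes that did, and supports nothing.

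Total liver RNA came from 4 male HuR flox/flox mice on the C57BL/6J background, which all carried the floxed alleles and all received a Western diet with fructose and glucose in the drinking water (WDSW) for 4 weeks. Mice 1 and 2 (control) had been injected with AAV8-TBGP-GFP. Mice 3 and 4 (labelled HuR hKO) had received AAV8-TBGP-Cre, in which the thyroxine-binding globulin promoter restricts Cre to hepatocytes, so the other cells of the liver kept the gene. The groups were matched for age, which the labels do not give. HuR, encoded by Elavl1, is an RNA-binding protein that binds AU-rich elements and often stabilizes the transcripts that hold them.

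The 4 libraries held between 13032095 and 19715577 counts on genes, and the largest was that of mouse 4, labelled HuR hKO. Elavl1 had 377 and 347 counts in the control mice and 541 and 648 counts in mice 3 and 4, a level of 27.1 ± 1.74 against 36.1 ± 2.36 CPM (counts scaled to a common library size, mean ± SD, n = 2 mice). The level over the whole gene was thus no lower in mice 3 and 4 than in the controls, against the direction of their label (log2 fold change 0.41, SE 0.14, edgeR quasi-likelihood test, adjusted p = 0.545). These are counts over the whole gene and do not separate the floxed exons, so they do not settle whether the label holds. Mice 3 and 4 are therefore named by their label, and every direction given below rests on it. All 7 hepatocyte markers were high, with a summed level of 65710 to 75470 CPM. In bulk liver RNA, fewer cells of a type and less RNA per cell cannot be told apart. In this design of 2 mice against 2, an exact permutation test cannot give a p below 0.333.

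Zinc enters the cytosol through ZIP proteins, the products of the Slc39 genes, and leaves it through ZnT proteins, the products of the Slc30 genes. Free zinc in the cell is bound by metallothioneins, small cysteine-rich proteins. When zinc rises, MTF1 binds metal response elements, short promoter motifs, and switches on Mt1, Mt2 and Slc30a1. In liver, SLC39A14 takes up zinc, iron and manganese and is induced by interleukin 6, SLC39A8 carries manganese as well as zinc, and SLC30A10 exports manganese. SLC39A4 is best known as the zinc importer of the small intestine, and its loss causes acrodermatitis enteropathica.

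The promoters of the metal-responsive genes are shown because the metallothioneins had the widest spread among these mice. Windows of 250 bases before to 50 after a start site were taken from RefSeq (GRCm38.p6), and 8 of the 10 genes (all but Slc39a4 and Slc39a14) had one or more, 10 windows in all. The core of the metal response element was searched on both strands as TGCACNC or TGCGCNC, with overlapping matches counted as 1 place. Mt2 (chr8:94172368-94172667, plus strand) held 4 places and Mt1 (chr8:94178839-94179138, plus strand) held 3. Slc30a1 (chr1:191906531-191906830, plus strand) held 2. Capitals mark the core, read on the strand shown or on the opposite one.
Mt2: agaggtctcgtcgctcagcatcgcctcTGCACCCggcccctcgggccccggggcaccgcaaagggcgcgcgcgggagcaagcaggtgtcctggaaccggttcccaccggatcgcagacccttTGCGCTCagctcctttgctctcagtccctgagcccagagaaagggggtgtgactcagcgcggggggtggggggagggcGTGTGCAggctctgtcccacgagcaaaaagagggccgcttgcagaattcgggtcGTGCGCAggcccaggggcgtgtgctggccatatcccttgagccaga
Mt1: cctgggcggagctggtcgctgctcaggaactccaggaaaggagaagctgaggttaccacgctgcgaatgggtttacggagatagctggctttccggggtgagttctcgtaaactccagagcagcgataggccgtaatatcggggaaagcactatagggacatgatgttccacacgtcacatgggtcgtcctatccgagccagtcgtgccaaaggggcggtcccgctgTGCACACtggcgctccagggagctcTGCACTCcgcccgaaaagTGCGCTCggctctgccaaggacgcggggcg
Slc30a1: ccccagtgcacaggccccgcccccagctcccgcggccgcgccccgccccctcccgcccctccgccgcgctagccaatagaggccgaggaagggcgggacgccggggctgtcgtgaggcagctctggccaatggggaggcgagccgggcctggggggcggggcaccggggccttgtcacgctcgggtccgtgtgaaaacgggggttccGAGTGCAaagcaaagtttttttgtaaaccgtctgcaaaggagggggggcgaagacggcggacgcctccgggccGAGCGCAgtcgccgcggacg

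Of all 32851 RefSeq windows of this length, 25.7% held at least 1 place, 6.14% at least 2, 1.31% at least 3 and 0.295% at least 4. The Mt1 places in the window lay close together, between 23 bases before and 26 after the annotated start site, all on the strand of the gene. The Mt2 places were spread from 223 bases before to 10 after the annotated start, and lay on both strands. Positions and counts depend on the annotated start, and bases more than 50 after it were not searched. Places there would be missed. Slc30a10 had 2 places, Slc39a8 and Slc39a5 had 1 each in 1 of their 2 windows, and the Slc39a1 and Mtf1 windows had none of these letters. Among 17 other zinc genes with a window, 9 held at least 1 place and 1, Slc30a4, held 3. A match is a description of the letters, not a site shown to be bound.

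**Figure D1:**
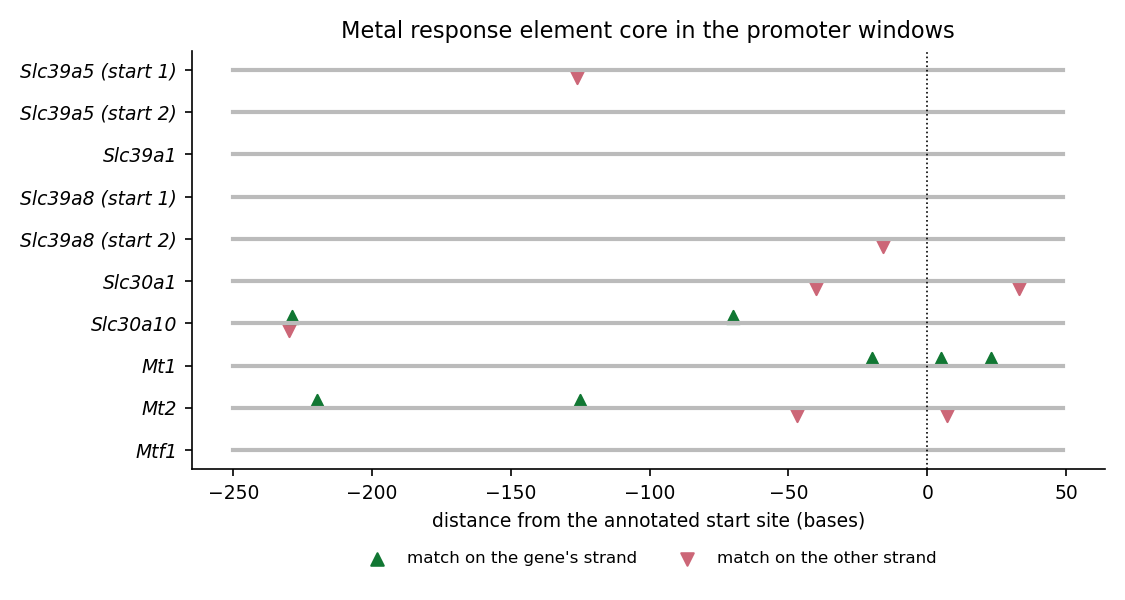
Places of the metal response element core in each promoter window. The x axis is the distance from the annotated start site in bases, each grey line is a window, and triangles mark matches on the strand of the gene (up) or the opposite one (down). Mt2 holds 4 places and Mt1 holds 3, while the Slc39a1 and Mtf1 windows hold 0.

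Slc39a4 (ENSMUSG00000063354, chr15:76612383-76617384, minus strand, GRCm38) was about 4 times as high in the libraries labelled HuR hKO. It had 175 and 215 counts in the control mice and 861 and 1093 counts in mice 3 and 4. Scaled to library size, this was 13.2 and 16.1 CPM against 60.1 and 58.0 CPM, a mean of 14.6 ± 2.04 against 59.1 ± 1.44 CPM (SD, n = 2). Both mice labelled HuR hKO lay far above both control mice, and the lower of them was 3.62 times the higher control. Within a group the mice were close, 1.22-fold apart in the controls and 1.04-fold apart in the others. The fitted difference was 2.01 on the log2 scale (SE 0.15), a 4.04-fold higher level.

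Slc39a4 was 1 of 3 genes with an adjusted p under 0.05 among the 13001 tested, which is 0.0231% of them, and the other two, named after their values were seen, were Tmem250-ps and Cib3. Without mouse 3, 0 genes were called. As Slc39a4 led to the choice of the genes, nothing is read from its place there. Among the settings that kept every mouse, Mt2 was called at the adjusted p as well with no filter on low counts. A fold change of at least 1.8 with an unadjusted p under 0.05 was passed upward by 1.21% of the genes tested and downward by 0.915%, and 3 of the 10 zinc genes passed it upward (Slc39a4, Slc39a5 and Mt2) and 0 downward. This count was 2 to 4 under other settings, and Slc39a4 was among them in every one. With every mouse kept, Mt1 was also among them with library totals only, with no filter on low counts and with at least 10 counts in every library. The same held by limma-voom and by the edgeR exact test. Mt2 was not among them by DESeq2, with upper quartile scaling, without control mouse 1 or without mouse 4, and Slc39a5 was not by limma-voom, without control mouse 2 or without mouse 3, nor was it tested with at least 10 counts in every library. By level alone, 19.3% of all genes tested had both mice labelled HuR hKO above both control mice and 18.8% had both below. Among the 10 zinc genes 3 lay above, 2 below and 5 overlapped. Their fitted differences were higher for 6 and lower for 4, with a median of 0.18 on the log2 scale, beside 0.0020 for all genes tested. These shares stand beside the counts and are not read as a result, because this contrast chose the genes.

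**Figure D2:**
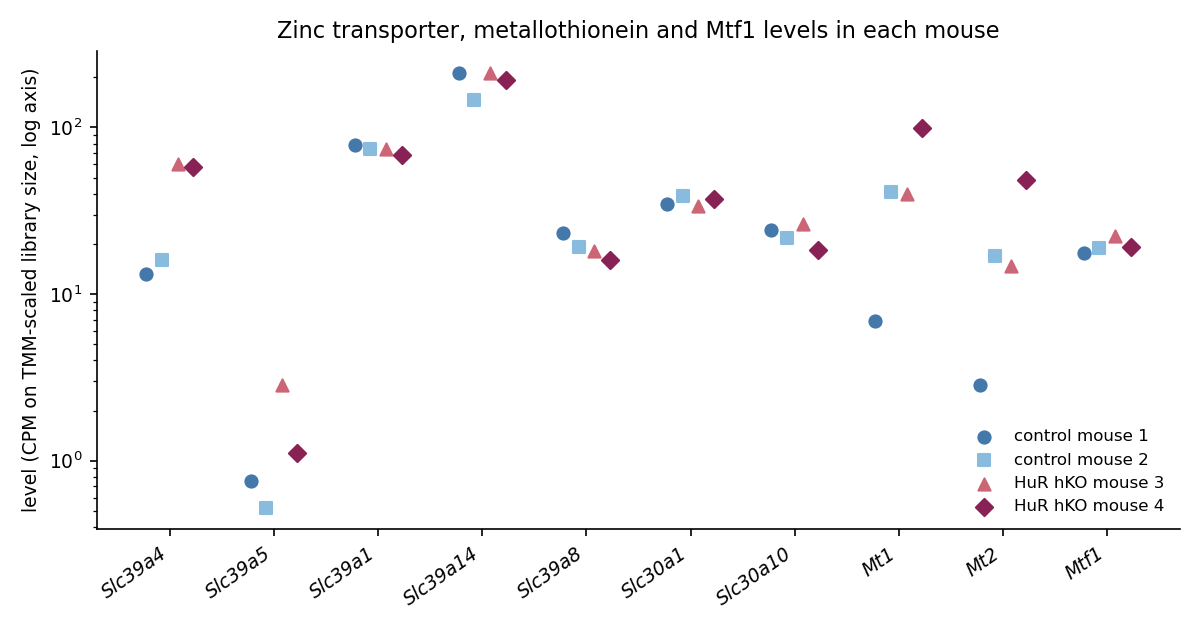
Level of each of the 10 zinc genes in each mouse. The y axis is CPM on the TMM-scaled library size (log axis), and each point is 1 mouse (circle and square, control; triangle and diamond, labelled HuR hKO). Slc39a4 lies at 13.2 and 16.1 CPM in the control mice and at 60.1 and 58.0 CPM in the other two, while Mt1 and Mt2 spread widely within both groups.

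Slc39a5 (ENSMUSG00000039878), another importer, was scarce. It had 10 and 7 counts in the control mice and 41 and 21 counts in mice 3 and 4. Its levels were 0.753 and 0.523 CPM against 2.86 and 1.11 CPM. Both mice labelled HuR hKO lay above the controls, but the exact 95% interval of mouse 4 (0.690 to 1.70 CPM) overlapped those of control mouse 1 (0.361 to 1.38 CPM) and control mouse 2 (0.210 to 1.08 CPM), and only mouse 3 (2.05 to 3.88 CPM) stood clear of them. These intervals cover counting error only. The fitted difference was 1.60 on the log2 scale (SE 0.59). It was 0.78 without mouse 3 and 2.15 without mouse 4, so its size rests on mouse 3. The gene lies at chr10:128395931-128401229 on the minus strand, and its gene body overlaps Ankrd52 on the opposite strand with no exonic base shared.

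The importers that are usual in liver differed little. Slc39a14 (chr14:70303469-70351425, minus strand) had 2837 and 1950 counts in the control mice and 3040 and 3622 in mice 3 and 4. Its levels of 214 and 146 against 212 and 192 CPM overlapped, with control mouse 2 as the low one, and the fitted difference was 0.17 (SE 0.19). Left-out mice moved it from -0.08 to 0.46, so no direction can be given.

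Slc39a1 (chr3:90248172-90253612, plus strand), a broadly expressed importer of the plasma membrane, had 1044, 994, 1063 and 1285 counts in mice 1 to 4. Its levels were 78.6 and 74.2 against 74.2 and 68.2 CPM. Control mouse 2 and mouse 3 were level, so the groups were separated by almost nothing, and the difference was -0.10 (SE 0.13).

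Slc39a8 (chr3:135825279-135888572, plus strand) had 308, 258, 259 and 303 counts, which gave 23.2 and 19.3 against 18.1 and 16.1 CPM. Both mice labelled HuR hKO lay below the control mice, and the difference was -0.32 on the log2 scale (SE 0.16), with a range of -0.44 to -0.19 when each mouse was left out. Of the 5 importers chosen, Slc39a4 and Slc39a5 therefore stood higher in the libraries labelled HuR hKO, and the other three had differences of -0.32 to 0.17.

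The exporters had levels close to those of the control mice. Slc30a1 (chr1:191906767-191913247, plus strand), the plasma membrane exporter whose promoter is shown above, had 463 and 522 counts against 482 and 700 counts. Its levels of 34.8 and 39.0 against 33.6 and 37.2 CPM overlapped, and the 4 mice lay within 1.16-fold of each other. The difference was -0.06 (SE 0.14). It shares 468 exonic bases with the antisense gene 1700034H15Rik, which had 3 to 8 counts. Slc30a10 (chr1:185454848-185468762, plus strand) had 320, 290, 377 and 346 counts, or 24.1 and 21.7 against 26.3 and 18.4 CPM. Mice 3 and 4 were its highest and its lowest value, and the difference was -0.04 (SE 0.19). It shares 533 exonic bases with Gm2061 on the opposite strand, which had 5 to 9 counts.

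Mtf1 (chr4:124802104-124849800, plus strand) had 233 and 252 counts in the control mice and 319 and 359 counts in mice 3 and 4. Its levels were 17.5 and 18.8 against 22.3 and 19.1 CPM. Both mice labelled HuR hKO lay above the control mice, mouse 4 at only 1.01 times control mouse 2, and the difference was 0.18 (SE 0.15). Mtf1 shares 721 exonic bases with 1110065P20Rik on the opposite strand. That gene had 198 and 184 counts against 271 and 368 counts (log2 fold change 0.43, SE 0.15, edgeR adjusted p = 0.574). Whether the counting used the strand of the reads is not given in the sources used here, so reads of the pair cannot be told apart.

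The metallothioneins differed widely between mice of the same group. Mt1 (chr8:94179082-94180327, plus strand) had 92 counts in control mouse 1, 549 in control mouse 2, 571 in mouse 3 and 1861 in mouse 4. The levels were 6.92 and 41.0 against 39.8 and 98.8 CPM, a mean of 24.0 ± 24.1 against 69.3 ± 41.7 CPM (SD, n = 2). Control mouse 1 was the lowest, mouse 4 the highest, and control mouse 2 lay just above mouse 3, so the groups overlapped. Mt2 (chr8:94172664-94173568, plus strand) had 38, 228, 211 and 909 counts in the same order of mice. Its levels were 2.86 and 17.0 against 14.7 and 48.3 CPM, a mean of 9.94 ± 10.01 against 31.5 ± 23.7 CPM, and they overlapped in the same way.

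The fitted differences were 1.54 (SE 0.67) for Mt1 and 1.67 (SE 0.71) for Mt2 on the log2 scale. Single mice decided their size. They were 0.73 and 0.57 without mouse 4, 0.75 and 0.89 without control mouse 1, 2.03 and 2.26 without mouse 3, and 3.33 and 3.47 without control mouse 2. Mt1 was 5.92-fold apart between the control mice and Mt2 was 5.95-fold apart, where the median over 12252 genes with a mean of at least 1 CPM was 1.15. Of those genes, 46 had a fold between the control mice as large as that of Mt1, and 45 as large as that of Mt2. Between mice 3 and 4 the folds were 2.48 and 3.28, with a median over genes of 1.14.

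Mt1 and Mt2 moved together across the mice. Mt2 made up 29.2% of the counts of both genes in control mouse 1 (exact 95% interval 21.6 to 37.9), 29.3% in control mouse 2 (26.2 to 32.7), 27.0% in mouse 3 (23.9 to 30.2) and 32.8% in mouse 4 (31.1 to 34.6). The summed level of the pair ran from 9.78 CPM in control mouse 1 to 147 CPM in mouse 4. The share therefore lay between 27.0% and 32.8% while the sum changed widely. The intervals of mice 3 and 4 did not overlap, so the share differed between these mice by more than counting error. Their coding sequences are 186 bases each and match at 148 positions (79.6%), with a longest shared run of 20 bases. How reads that match both genes were counted is not given in the sources used here, so the split between the pair is uncertain. Mt2 also shares 432 exonic bases with the antisense gene Gm45774, which was not analysed here.

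**Figure D3:**
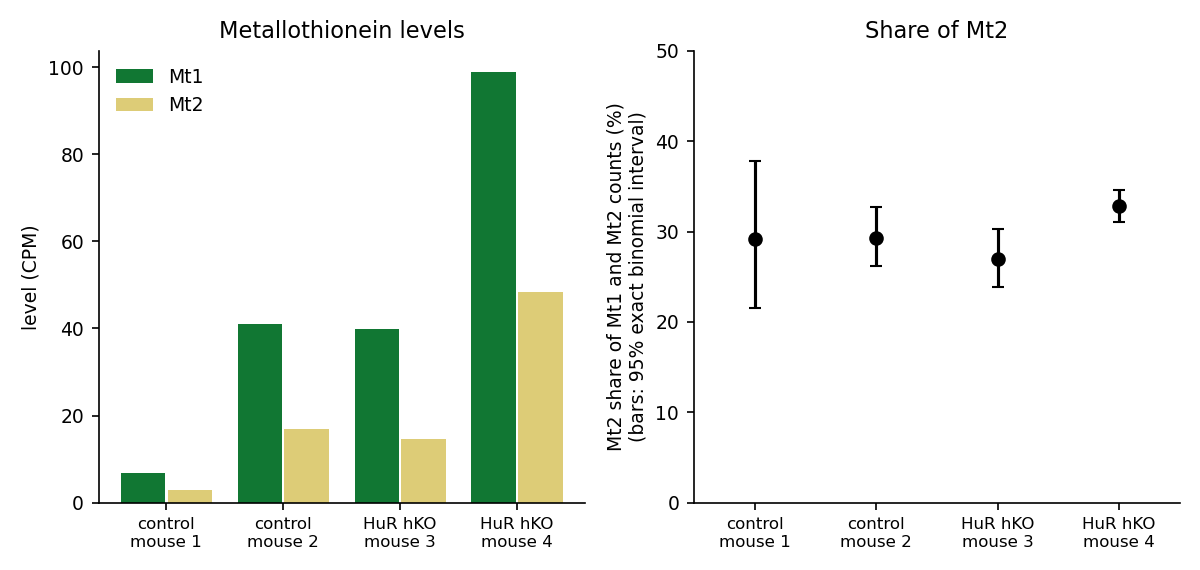
Left, Mt1 and Mt2 levels in CPM (bars from 0, 1 mouse each); right, the share of Mt2 in the counts of both genes in percent, with exact 95% binomial intervals. The summed level runs from 9.78 to 147 CPM, while the Mt2 share lies between 27.0% in mouse 3 and 32.8% in mouse 4, whose intervals do not overlap.

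To set levels of different genes side by side, CPM was divided by the length of a coding transcript in kilobases. On this scale the order in the control mice was Slc39a7 (50.5 ± 5.61 CPM per kb), an importer of the endoplasmic reticulum and Golgi, Mt1 (43.6 ± 43.9), Slc39a14 (36.4 ± 9.75), Slc39a1 (32.3 ± 1.30) and Mt2 (19.5 ± 19.6). Each of these neighbours in the order overlapped with the next. Slc39a4 stood at 5.31 ± 0.741 CPM per kb in the controls, the 8th of 14 importers, and overlapped Slc39a8 (6.01 ± 0.784) above it. In the libraries labelled HuR hKO it stood at 21.5 ± 0.525 CPM per kb, the 4th of 14, below Slc39a1 (30.1 ± 1.78) and above Slc39a11 (9.18 ± 0.525) without overlap with either. Mt1 (126 ± 75.9) and Mt2 (61.6 ± 46.4) had the highest means there, and Mt2 overlapped Slc39a7 (50.9 ± 2.92) while Mt1 did not. Slc39a5 remained low, at 0.315 ± 0.0803 against 0.982 ± 0.610 CPM per kb.

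The rest of the 3 families gave no call. Of 19 other zinc transporter and metallothionein genes, 13 were tested, 8 importers and 5 exporters. Fitted levels were higher for 4 and lower for 9, with a median difference of -0.15 on the log2 scale and a range from -0.77 (Slc39a10) to 0.30 (Slc30a6). None passed the fold threshold, none passed the adjusted p, and 0 had an unadjusted p under 0.05 by edgeR (0 adjusted calls by DESeq2, limma-voom and the edgeR exact test), where 966 of all 13001 genes did. Slc30a6, a ZnT of the Golgi, was the one gene with both mice labelled HuR hKO above the controls, at 8.96 and 9.03 against 10.5 and 11.5 CPM (SE of the log2 difference 0.17). Slc39a9, Slc30a4 and Slc30a5 had both below, with Slc30a4, a ZnT of intracellular vesicles, at 12.2 and 8.96 against 8.44 and 7.70 CPM, and 9 overlapped.

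The importers of this remainder were Slc39a7 with 126 and 108 against 113 and 123 CPM, Slc39a9 with 53.4 and 50.9 against 43.9 and 49.9 CPM, and Slc39a11, Slc39a3 and Slc39a13 between 8.12 and 25.7 CPM in all mice. Slc39a2, Slc39a6 and Slc39a10 stayed between 1.11 and 3.99 CPM. Slc39a10 was low in 3 mice, with 3.99 CPM in control mouse 1 and 1.94, 1.95 and 1.54 CPM in the others. Of the exporters, Slc30a9, Slc30a5 and Slc30a7 had 60.6 to 65.7, 26.5 to 38.3 and 17.6 to 22.0 CPM over the 4 mice. Slc39a12, Slc30a2, Slc30a3, Slc30a8, Mt3 and Mt4 had at most 5 counts in any library and were not tested. For a gene with no count the upper limit is 3 counts, or 0.159 to 0.226 CPM in these libraries, for counting error only.

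**Figure D4:**
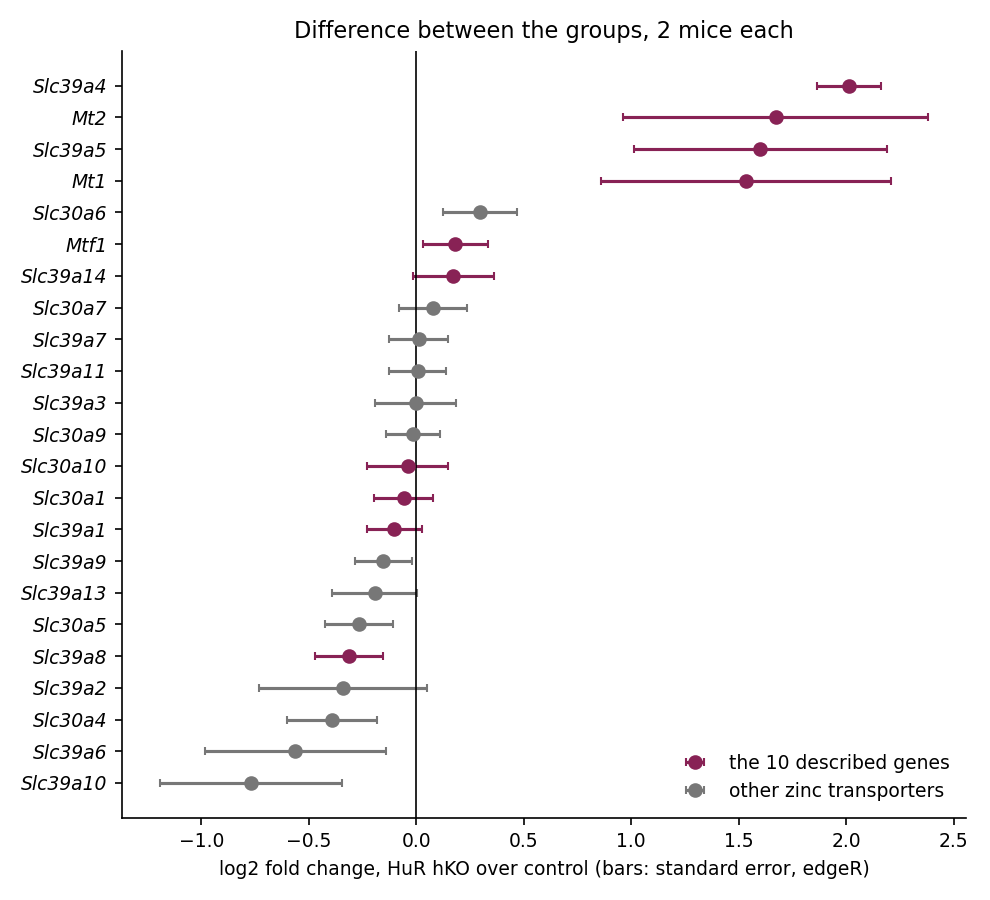
Difference between the groups for the 10 zinc genes (dark red) and the 13 other zinc transporters tested (grey). The x axis is the log2 fold change of HuR hKO over control, with bars for the edgeR standard error (2 mice per group). Slc39a4 stands at 2.01 with an SE of 0.15, and the other zinc transporters lie between -0.77 and 0.30.

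Genes that answer to the same signals were followed in lists. Of 5 other MTF1 targets (Gclc, Selenoh, Selenow, Ndrg1 and Csrp1), 0 passed the fold threshold, the adjusted p or an unadjusted p under 0.05 by edgeR, DESeq2, limma-voom or the exact test, and their differences ran from -0.18 to 0.29, with a median of 0.0076 beside 0.0020 for all genes tested. Selenow and Selenoh had the same order of mice as Mt1 and Mt2, lowest in control mouse 1 and highest in mouse 4. The full order of Mt1 was also that of 926 of the 13001 genes tested. It was found in 3 of 8 genes of copper handling (Atox1, Commd1 and Cox17) and in 1 of 6 of manganese handling (Sod2). Selenow had 49.1, 69.7, 62.2 and 82.0 CPM in mice 1 to 4, Selenoh had 8.13, 9.78, 8.65 and 13.1 CPM, and Gclc, the catalytic subunit of glutathione synthesis, had 233, 211, 237 and 155 CPM. Slc30a1, with 2 places in its window, differed by at most 1.16-fold among the mice, where Mt1 differed by 14.3-fold and Mt2 by 16.9-fold. The part of MTF1 or of zinc in the metallothionein levels was not tested.

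Glucocorticoids also induce metallothioneins. Of 10 glucocorticoid-responsive genes 0 passed the fold threshold and 0 the adjusted p by any of these tools, with 1 at an unadjusted p under 0.05 by edgeR and 2 by DESeq2, while 7 were fitted higher and 3 lower, and the median was 0.08. By mouse, 6 of the 10 were highest in mouse 4, as Mt1 was (Fkbp5, Tsc22d3, Per1, Tat, Pck1 and Igfbp1), where 26.7% of all genes tested were. Igfbp1, which encodes an insulin-like growth factor binding protein, was the 1 gene of the list that was also lowest in control mouse 1, with 22.7 and 24.4 against 24.4 and 44.5 CPM. Over all genes tested, 13.8% were lowest in control mouse 1 and highest in mouse 4. Zbtb16, Klf9 and Dusp1 were highest in control mouse 1, Zbtb16 with 25.1 and 5.38 against 9.42 and 9.08 CPM. Fkbp5, a classical target, had 58.9 and 27.2 against 43.3 and 61.7 CPM. The part of glucocorticoids in the metallothionein levels was not tested. Pck1, the rate-limiting enzyme of gluconeogenesis, had 2174 and 2519 against 1909 and 2970 CPM.

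**Figure D5:**
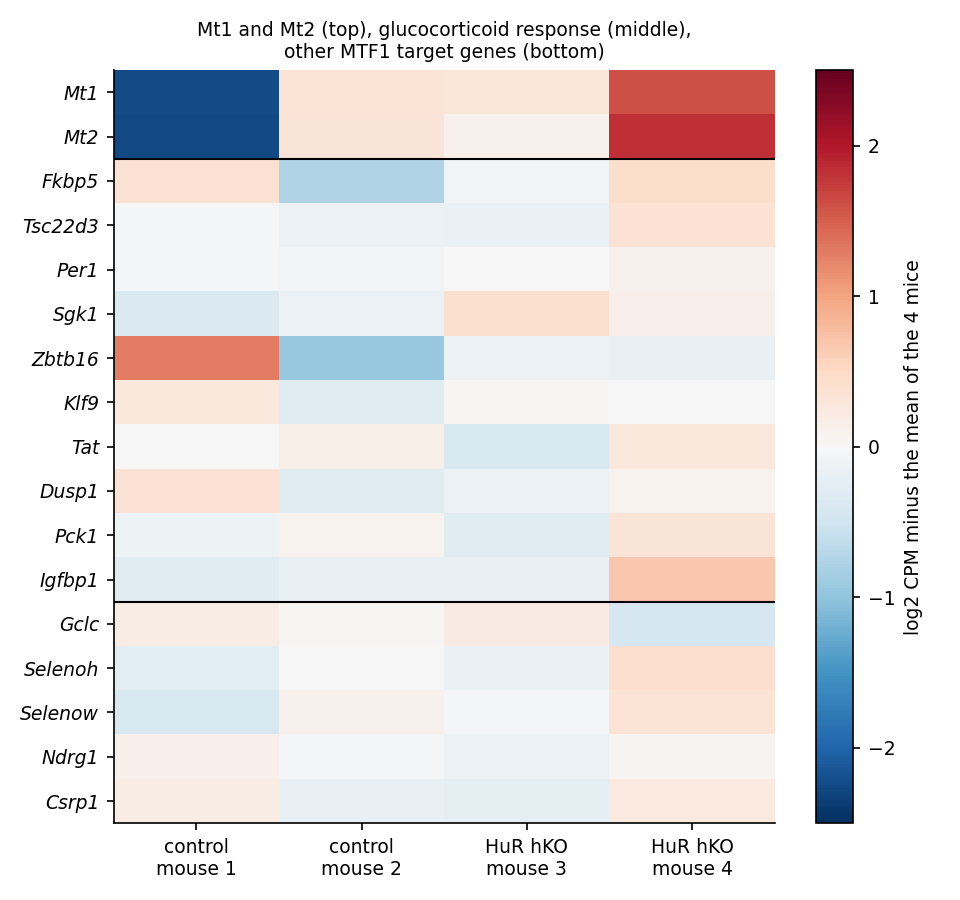
Log2 CPM of each gene minus its mean over the 4 mice (colour; red, above the mean; blue, below), for Mt1 and Mt2, the glucocorticoid list and the other MTF1 targets, with 1 column per mouse. Mt1 and Mt2 are lowest in control mouse 1 and highest in mouse 4, as are Igfbp1, Selenow and Selenoh, over a smaller range. Zbtb16, Klf9, Dusp1 and Ndrg1 are highest in control mouse 1.

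Among 14 genes of the interleukin 6 acute phase response, the signal that induces Slc39a14, 3 passed the fold threshold upward and 0 downward. Of all genes tested, 1.21% passed it upward and 0.915% downward. With the edgeR quasi-likelihood test and limma-voom, 0 passed the adjusted p and 4 had an unadjusted p under 0.05. Over all 13001 genes, 966 had one by the quasi-likelihood test. With DESeq2 and the edgeR exact test, the 3 genes Saa1, Saa2 and Lcn2 passed the adjusted p. Saa1, an acute phase apolipoprotein, had 40.1 and 27.0 against 71.6 and 67.2 CPM (log2 difference 1.05, SE 0.19, edgeR adjusted p = 0.139), a difference of 0.79 without control mouse 2, which missed the fold threshold. Saa2 had 19.8 and 17.9 against 34.4 and 39.7 CPM (0.97, SE 0.14, edgeR adjusted p = 0.0920). Saa1 and Saa2 are close copies, so the split of reads between them is uncertain. Lcn2, an iron-siderophore binding protein, had 3.09 and 2.61 against 8.44 and 16.3 CPM (2.13, SE 0.34, edgeR adjusted p = 0.103). The fibrinogen chains Fga, Fgb and Fgg had differences of -0.22, -0.11 and -0.04, and the list's median was -0.03.

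Metal and redox genes gave few differences. Of 8 genes of copper handling, 0 passed the fold threshold. Atp7b, the copper exporter mutated in Wilson disease, had 29.1 and 30.4 against 18.8 and 19.4 CPM (log2 difference -0.64, SE 0.13, edgeR adjusted p = 0.215), named after its values were seen as the one of the list with an unadjusted p under 0.05. It passed the adjusted p by the edgeR exact test alone of the 4 tools. Of 6 genes of manganese handling 0 passed, also at an unadjusted p under 0.05 and by all 4 tools, and the median was 0.05. Of 6 NRF2 targets tested, 1 passed upward, where 1.21% of all genes tested did. It was Gsta1, a glutathione transferase, with 3.46 and 5.75 against 17.0 and 6.90 CPM (1.36, SE 0.43, edgeR adjusted p = 0.517). Its difference was 0.57 without mouse 3.

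Other cell types were checked where they express these genes. For the intestine, where Slc39a4 and Slc39a5 are prominent, 4 of 8 enterocyte markers (Alpi, Cdx1, Cdx2 and Lct) had no count in any library and Sis and Vil1 stayed at or under 1.58 CPM. The summed level of the list was 126 and 199 against 172 and 243 CPM and came nearly all from Fabp2. For the pancreas, 2 of 7 acinar markers had no count in any library, and the sum was 13.7 and 9.63 against 12.6 and 20.2 CPM. Most of it was Cela1, the 1 gene tested. Cela1 had an unadjusted p under 0.05 by all 4 tools and passed neither other threshold. Pnlip, Cpa1 and Prss2 had 9, 4 and 1 counts in mouse 3 and 0 in the other mice. Ctrb1 had 54, 0, 3 and 0 counts in mice 1 to 4. The bile duct list summed to 52.8 and 27.6 against 39.6 and 49.8 CPM, and Krt19 reached 12.2 CPM in control mouse 1, against 0.373, 0.488 and 1.81 CPM in the others. Of 4 bile duct markers tested, 1 had an unadjusted p under 0.05 by edgeR and 2 by the exact test, 0 passed the fold threshold by edgeR and 1 by the exact test, and 0 passed the adjusted p by any of the 4 tools. Of the 5 erythroid markers tested, all fitted higher, 0 passed the fold threshold. By edgeR 3 had an unadjusted p under 0.05, where 966 of all 13001 genes did. By DESeq2 4 did, and DESeq2 called Hbb-bs at the adjusted p. The erythroid sum was 363 and 451 against 489 and 711 CPM. Mice 1 and 4 were thus the lowest and the highest for the erythroid and the enterocyte sum as well as for Mt1 and Mt2. The same was true of 3 of 5 stellate cell markers (Dcn, Col1a1 and Reln) and of 13.8% of all genes tested. Kupffer cell, endothelial and stellate lists each had 0 genes past the fold threshold by all 4 tools, with 0, 0 and 1 at an unadjusted p under 0.05 by edgeR and sums of 115 to 129, 112 to 149 and 155 to 202 CPM, and the neutrophil list stayed at or under 1.57 CPM in sum. Of the Kupffer cell, endothelial and stellate genes, 4 of 7, 5 of 5 and 4 of 5 were fitted higher, beside 6544 of all 13001 genes tested. The part of other cell types in these results was not tested.

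HuR is known for binding AU-rich elements, so the 3′ untranslated regions were read for the pentamer ATTTA in a coding transcript of each gene. Slc39a4 (144 bases), Slc39a5 (113 bases), Mt1 (134 bases) and Mt2 (141 bases), the 4 genes with the largest fitted differences, also had the 4 shortest regions, and held 0. Nothing is read from this grouping, because the same contrast chose the genes. The other six, with regions of 1270 to 5457 bases, held between 2 (Slc39a1) and 8 (Slc30a10). Of 11865 tested genes with such a region, 66.6% held at least 1, with a median length of 997 bases, and of the 953 with at most 150 bases, 13.4% did. Binding was not measured.

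By likeness of pattern, the 5 genes nearest to Slc39a4 over the 4 mice were Mmd2 (root mean square distance 0.11 in centred log2(CPM + 0.5)), Cyp2b13, Tmem265, Mmp12 and H2-Q1. Mmd2 had 1.20 and 1.64 against 6.14 and 5.89 CPM, and Cyp2b13, a cytochrome P450 with near-identical relatives whose reads could be split, had 0.677 and 1.05 against 3.91 and 5.20 CPM. Mmp12, the macrophage elastase, had 0.226 and 0.224 against 2.72 and 1.49 CPM. These came from 3 and 3 against 39 and 28 counts, and its control levels were under the 0.5 CPM added, so its distance depends on that setting. The gene nearest to Mt1 was Mt2 (distance 0.14), and among the others Gm5559 came first (0.31), followed by Gm37335, Acot3, Gm10680 and Rhbg. Acot3, a peroxisomal thioesterase, had 9.41 and 65.7 against 34.8 and 67.7 CPM, and Rhbg, an ammonia transporter, had 5.12 and 13.4 against 13.2 and 33.2 CPM. With 4 mice such a nearness is a description of the values only, and near genes need not share the order of mice.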

How the data were processed

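Total liver RNA of 4 mice was sequenced. The authors deposited whole-number counts of reads per gene for each mouse, without normalization, in 1 table. The submitters' processing notes name RSEM and GRCm38, with no version or role, and use of strand is not given in the sources used here. Groups came from the labels. Nothing says more of the replicates than that they are separate mice.

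Symbols named 46005 of 46603 identifiers, and coordinates came from GENCODE M21 (GRCm38). Genes were kept by edgeR's filter (10 counts, total 15), scaled with TMM factors and compared with the quasi-likelihood test (edgeR 4.0.16, R 4.3.3), with Benjamini-Hochberg adjustment over 13001 genes. The script was tested on simulated counts. CPM uses the TMM-scaled library size, and ± is the SD of 2 mice. Intervals are exact binomial (scipy 1.17.1, 95%). The study's methods give a fold change of at least 1.8 with p under 0.05, used here with the edgeR p. Alternatives were DESeq2 1.42.0, limma-voom (limma 3.58.1), the edgeR exact test, other scalings and filters, and leaving out each mouse. Tables and figures were made with matplotlib 3.10.9, numpy 2.4.6 and pandas 2.3.3 under python 3.11.15.

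Named were all 10 members and every detected gene of the 3 zinc families. Of the other lists, those past the fold threshold and at most 3 more, the highest by CPM, were named, except Atp7b, Fkbp5, the genes named for their order of mice and the cell type markers, chosen after their values were seen. Also named were the 5 genes nearest to Slc39a4 and to Mt1. The members and lists were chosen with earlier results of these data known. The planned protein sequences were not used here.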

Additional observations from a re-analysis of the deposited data

How the results depend on the processing

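Of 13001 genes tested, 3 were called at the adjusted p by edgeR's quasi-likelihood test, 8 with library totals only, 161 with no filter on low counts, 85 by DESeq2 and 120 by the edgeR exact test. Leaving out 1 mouse gave 0 to 73 calls, with 0 without mouse 3 (777 genes at an unadjusted p under 0.05), 43 without control mouse 1, 73 without control mouse 2 and 7 without mouse 4. The fold threshold was passed by 276 genes, by 526 with no filter, 187 by DESeq2, 222 with at least 10 counts in every library, 264 to 317 under the other scalings and tools, and by 262 to 506 with 1 mouse left out, the most without control mouse 2. Of the other zinc genes 0 passed it, and 0 to 1 with 1 mouse left out (Slc39a10, without control mouse 2). The Slc39a4 log2 difference of 2.01 ran from 1.87 to 2.17 with 1 mouse left out and from 2.00 to 2.02 under the other settings. The cause of these shifts was not tested. With 1 mouse left out, Slc39a14, Slc30a1 and Slc30a10 changed sign (-0.08 to 0.46, -0.15 to 0.03 and -0.33 to 0.20), and the other seven kept theirs in every setting that tested them, while Slc39a5 was removed by the filter of 10 counts in every library. Saa1 (0.79 without control mouse 2), Gsta1 (0.57 without mouse 3), Slc39a5 (0.78 without mouse 3) and Mt2 (0.57 without mouse 4) no longer passed the fold threshold. Where 1 mouse was left in a group, it was assumed to vary like the other group. No paired analysis was possible because the mice carry the numbers 1 to 4, none shared between the groups. With 2 mice a group, neither small differences nor the spread within a group could be measured well.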
